A study of Mus musculus with 27 samples.

Results

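Most of the 10 genes described here encode proteins that the liver makes in larger amounts during inflammation. They include the serum amyloid A genes Saa1, Saa2, Saa3 and Saa4, of which Saa4 encodes the constitutive form. The others are the orosomucoid genes Orm1, Orm2 and Orm3, lipocalin 2 (Lcn2), haptoglobin (Hp) and the interleukin-1 receptor Il1r1, which takes part in that response. The 10 genes were taken as a list of gene symbols with no threshold on a measured value, although the list was drawn up with earlier results of these data known. All 10 were found among the 51826 genes of the deposited tables. The acute phase response is the change in plasma proteins that follows injury or infection. Interleukin-6, acting through STAT3, and interleukin-1, acting through NF-kappaB and C/EBP factors, are its best known inducers in hepatocytes, and serum amyloid A is among the mouse proteins that rise most. Positive acute phase proteins rise in this response, and negative ones such as albumin fall.

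RNA was sequenced from whole livers of wildtype BALB/c mice, an inbred strain, at 7 stages of a reproductive cycle. According to the labels, breeding took place at an age of 10 to 12 weeks, litters were evened in size, weaning fell between days 10 and 14 of lactation, and all animals were matched for age. The groups were nulliparous mice that had never been pregnant (NUL, 4 animals), lactation day 10 (LAC, 3), involution days 2, 4, 6 and 8 after weaning (ID2, 3 animals; ID4, 4; ID6, 6; ID8, 3) and 4 weeks after weaning, which the labels call regressed (REG, 4). The labels name no drug and no engineered allele, and each animal was sampled once, so stages compare different animals. Totals were 41120650 to 75664540 estimated counts per library, and every member was counted in all 27 libraries, from at least 41 (Orm3) to at most 565452 counts (Hp). All 13 hepatocyte markers checked were detected at every stage. ID2_31 stood apart through exocrine pancreas markers, 14 genes that summed to 2108 CPM there (counts scaled to a common library size), 163 in ID4_15 and at most 50.6 in the other libraries. Animal numbers in the sample titles were under 200 for all 3 ID8 animals, 2 of 3 at ID2 and 2 of 4 at ID4, and 200 or more elsewhere; the labels do not say what the numbers mean, and stage and numbering cannot be told apart for ID8.

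Of the 10 genes, 9 rose at ID4 against nulliparous liver, all but Il1r1, against 2.64% of all genes tested. In lactation 3 of the 10 fell (Saa3, Saa4 and Lcn2), against 6.00% of all genes. From ID4 to ID6, 7 of the 10 fell, against 4.64% of all genes, while Saa3, Orm3 and Il1r1 were not called. At ID8 and at REG none of the 10 passed the test against NUL, which is near the 0.499% and 0.0852% of all genes called there. The 10 genes together held between 0.207% (LAC_240) and 1.22% (ID4_13) of all counts in a library.

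A gene is said to have risen or fallen where its Benjamini-Hochberg adjusted p in edgeR's quasi-likelihood test was under 0.05 over all 16428 genes tested, and log2 fold changes, written as the first stage named against the second, come from that fit. Every member differed among the 7 stages by this test, against 27% of all genes, with edgeR adjusted p values from 5.25e-06 (Saa4) to 0.00975 (Orm1). At ID4 against NUL, 9 of 10 members rose, against 2.64% of all genes tested. Animals of the groups did not overlap for 5 members, against 6.17% of all genes that lay higher at ID4. The median log2 fold change of the 10 was 2.17, against -0.02 over all genes. The count was 5 without ID4_13, 5 when only NUL and ID4 animals were fitted (Saa3, Saa4, Orm1, Orm3 and Hp), 4 with the title number (under 200 or not) as a covariate (Saa1, Saa3, Saa4 and Orm3) and 2 among animals numbered 200 and over, a subset chosen after seeing the data that keeps 2 ID4 animals (Saa4 and Orm3). In that subset the log2 fold changes of the 9 were still 0.61 to 3.78. Over all genes, the main fit called 698 of 16428 at ID4 against NUL, in either direction. The number called was 359 with the title covariate and 180 of 17405 in that subset. With only NUL and ID4 animals fitted it was 730 of 14986. In lactation against NUL, 3 of 10 fell, against 6.00% of all genes, with a median of -0.79 against -0.01. Groups did not overlap for 6 members, against 11.2% of all genes that lay lower. The count was 1 without NUL_221, LAC_213 or LAC_240. Libraries of the same NUL animals enter every comparison with NUL, and the same holds for LAC and ID4 in the comparisons that use them, so the counts of different comparisons are not independent.

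**Figure D1:**
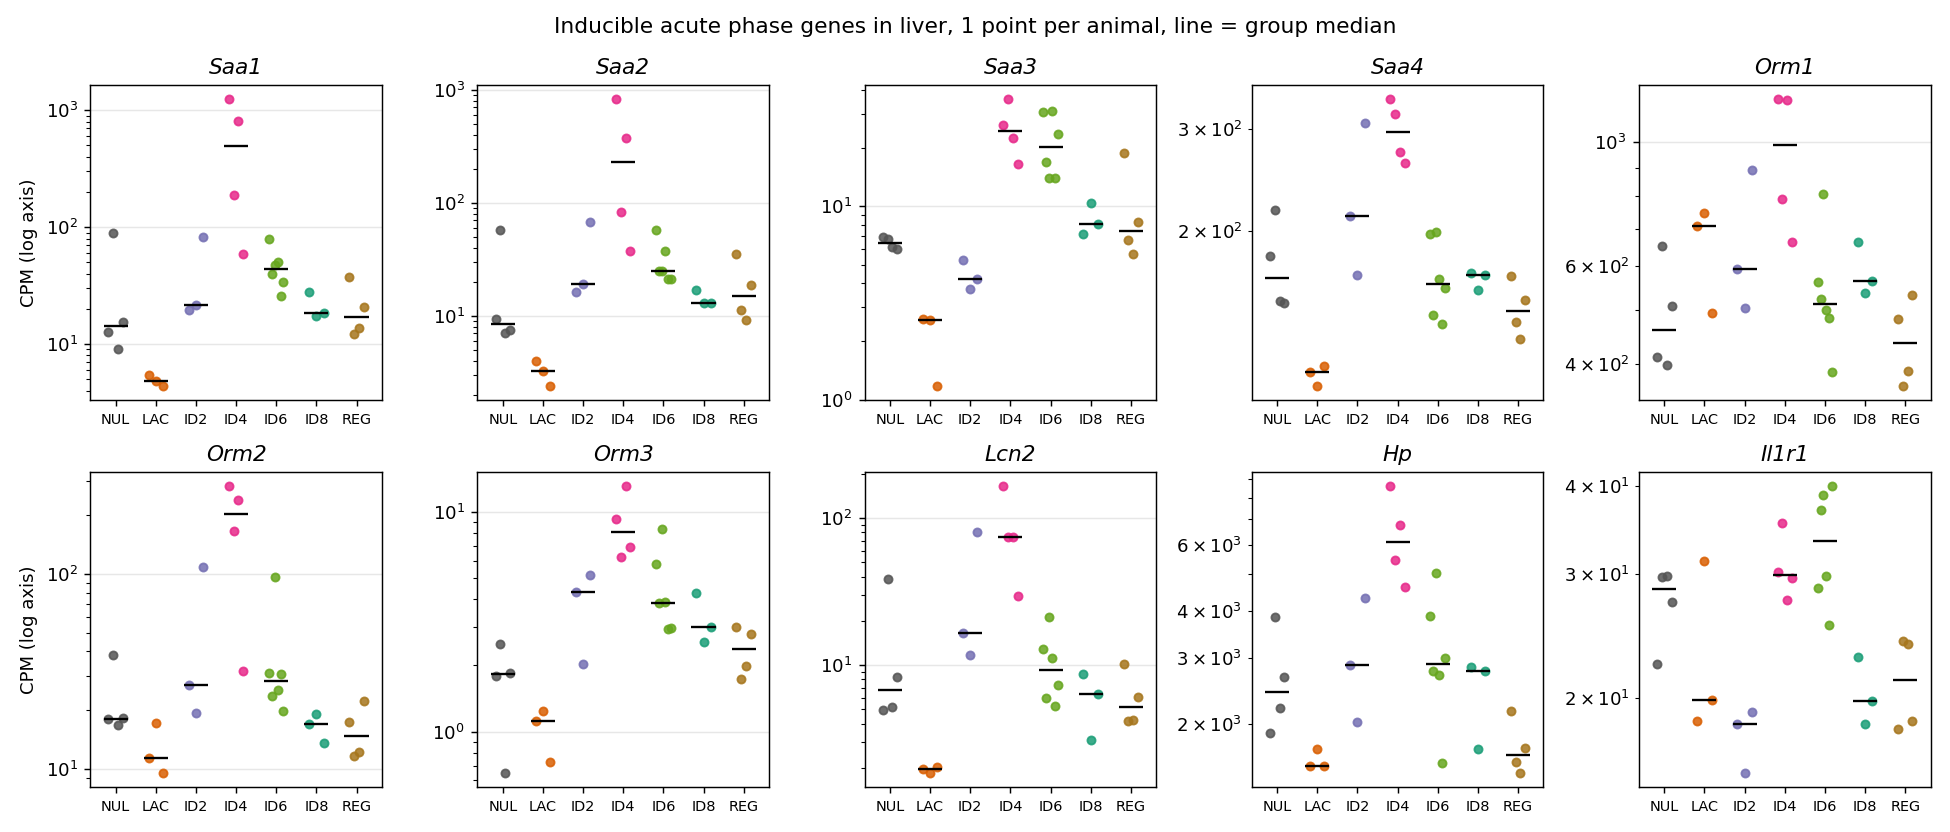
CPM (log axes, which differ between panels) of each of the 10 genes at the 7 stages, with 1 point per animal and a line at the group median. In Saa1, Saa2, Orm2 and Lcn2 the 4 ID4 animals spread widely, with a highest value 5.61 to 22.1 times the lowest, and NUL_221 lies above the other 3 NUL animals, while Saa3 is high at both ID4 and ID6 and Il1r1 is lower at ID2 and ID8 than at ID4 and ID6 in every animal.

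Saa1 and Saa2 encode the serum amyloid A proteins that hepatocytes secrete in the acute phase and that travel on high density lipoprotein. They lie in the serum amyloid A cluster on chromosome 7 (GRCm38, GENCODE M21). Saa1 (ENSMUSG00000074115) spans 46740497 to 46742980 on the minus strand, and Saa2 (ENSMUSG00000057465) spans 46751790 to 46754313 on the plus strand. The transcripts were 94.4% identical over 606 aligned bases, and the longest stretch they shared without a difference was 76 bases, so the division of reads between them depends on the authors' estimate, although the deposited counts of both were whole numbers in all libraries. The upstream bases of the pair are printed because these genes moved together in nearly every animal (Pearson r = 0.99 over 27 libraries for log2 CPM, a description of libraries that share stages). Each line gives the 250 bases before the RefSeq start, 5′ to 3′ on the gene's strand, from GRCm38.p6, which is the C57BL/6J reference and not BALB/c sequence. Capitals mark matches to the C/EBP motif TTGCNNAA on either strand. The Saa1 stretch is chr7:46742981-46743230 and the Saa2 stretch chr7:46751583-46751832.
Saa1: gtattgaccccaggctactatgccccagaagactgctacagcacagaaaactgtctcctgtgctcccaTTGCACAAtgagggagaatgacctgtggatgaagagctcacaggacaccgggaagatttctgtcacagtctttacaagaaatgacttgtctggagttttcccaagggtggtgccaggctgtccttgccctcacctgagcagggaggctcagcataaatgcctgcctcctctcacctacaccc
Saa2: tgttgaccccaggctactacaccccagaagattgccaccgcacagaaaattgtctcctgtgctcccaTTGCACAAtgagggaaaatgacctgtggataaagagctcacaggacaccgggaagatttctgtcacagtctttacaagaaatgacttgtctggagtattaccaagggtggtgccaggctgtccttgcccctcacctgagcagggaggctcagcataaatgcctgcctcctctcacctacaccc
These stretches were 95.6% identical over 249 aligned bases and carried the same match, TTGCACAA, at -182 and -183 from the start.

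In NUL_220, NUL_221, NUL_226 and NUL_227, Saa1 was at 12.7, 88.5, 9.08 and 15.6 CPM. The 3 LAC animals had 5.4, 4.85 and 4.4 CPM, all below every NUL animal. At ID2 the values were 19.7 (ID2_224), 21.5 (ID2_31) and 82.7 CPM (ID2_39). The highest of these was thus about the level of the highest nulliparous animal. At ID4 Saa1 stood at 1242 (ID4_13), 187 (ID4_15), 807 (ID4_211) and 58.6 CPM (ID4_215), a 21.2-fold range within 1 stage. Only ID4_215 lay within the NUL range. At ID6 the 6 animals lay between 25.9 and 78.9 CPM with a median of 43.7, at ID8 Saa1 was at 28.1, 17.5 and 18.5 CPM, and at REG at 37.6, 12.2, 13.7 and 20.6 CPM. All ID6, ID8 and REG values were thus within the range of NUL, whose upper part rests on NUL_221 alone. The other NUL animals, at 9.08 to 15.6 CPM, lay below every ID2, ID4, ID6 and ID8 animal. At ID6 against NUL Saa1 was not called (log2 fold change 0.55, at most 1.88 when 1 animal was left out).

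Saa1 was 18.2-fold higher at ID4 than in NUL, or 4.19 on the log2 scale (SE 0.86, edgeR adjusted p = 0.00717), and groups overlapped. The size of this difference leaned on NUL_221 and ID4_13: it was 5.53 without the first and 3.48 without the second, and the edgeR adjusted p stayed under the threshold without any 1 animal (highest 0.0311, without NUL_227). Saa2 rose by 4.01 (SE 0.88, edgeR adjusted p = 0.0114), from 20.4 ± 24.9 to 329 ± 361 CPM (SD, n = 4 and 4), with 5.37 without NUL_221, and lost the call without ID4_13 (3.01, edgeR adjusted p = 0.0518). With the counts of the pair summed before the fit the log2 fold change was 4.12 (edgeR adjusted p = 0.00859). Among animals numbered 200 and over it was 3.78 for Saa1 and 3.33 for Saa2 (edgeR adjusted p = 0.0735 and 0.108), so neither passed. From ID4 to ID6 Saa1 fell by 3.64 and Saa2 by 3.41 on the log2 scale (edgeR adjusted p = 0.00387 and 0.0069), and without ID4_13 Saa1 had -2.93 and Saa2 no longer passed (-2.41, edgeR adjusted p = 0.0538).

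The lactation values of the pair were the lowest of the cycle. Against NUL, the log2 fold change was -2.69 for Saa1 and -2.68 for Saa2, and neither passed (edgeR adjusted p = 0.0717 and 0.0896). Without NUL_221 these were -1.34 and -1.31, and DESeq2, run on all libraries, called both. Against LAC, Saa1 was 8.43-fold higher at ID2 (log2 fold change 3.08, edgeR adjusted p = 0.0375) and Saa2 10.7-fold higher (3.42, edgeR adjusted p = 0.03), with every ID2 animal above every LAC animal. Both calls were lost without ID2_39 (2.08 and 2.46, edgeR adjusted p = 0.194 and 0.146) and without any single LAC animal. Between LAC and ID4 the differences were 117-fold for Saa1 (6.88, SE 1.13, edgeR adjusted p = 0.000168) and 103-fold for Saa2 (6.69, SE 1.16, edgeR adjusted p = 0.0003), and these calls held without any 1 animal. Without ID4_13 the log2 fold changes were 6.17 and 5.69. The share of Saa1 in the summed TPM of the pair, the authors' value corrected for length and library size, was 58.1 ± 5.03% in NUL (SD, n = 4), 62.3 ± 4.92% at ID4 (n = 4), 52.0 ± 1.24% at ID2 (n = 3) and 51.2 ± 4.13% at REG (n = 4). The mix of the pair thus moved far less than its sum.

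Saa3 encodes an amyloid A protein that macrophages and fat cells make as well as hepatocytes, and Saa4 encodes the constitutive form, which is made without an inflammatory stimulus. Saa3 (ENSMUSG00000040026) lies at 46711998 to 46715700 and Saa4 (ENSMUSG00000040017) at 46727998 to 46732603 on chromosome 7, both on the minus strand. Their upstream stretches, chr7:46715677-46715926 and chr7:46732604-46732853, are printed in the same way to set them beside those of Saa1 and Saa2, with which the stages of Saa3 did not run in parallel.
Saa3: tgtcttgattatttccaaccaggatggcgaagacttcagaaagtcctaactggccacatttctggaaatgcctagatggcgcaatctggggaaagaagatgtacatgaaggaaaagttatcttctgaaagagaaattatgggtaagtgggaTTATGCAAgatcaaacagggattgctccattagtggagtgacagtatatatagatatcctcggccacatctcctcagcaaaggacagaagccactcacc
Saa4: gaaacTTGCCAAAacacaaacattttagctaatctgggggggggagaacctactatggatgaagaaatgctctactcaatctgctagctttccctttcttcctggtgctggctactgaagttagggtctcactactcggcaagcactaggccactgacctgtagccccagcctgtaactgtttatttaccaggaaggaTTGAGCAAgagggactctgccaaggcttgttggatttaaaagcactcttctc
Saa3 held a match at -99 on the opposite strand, and Saa4 held matches at -245 and, on the opposite strand, at -52.

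Saa3 varied little in NUL, at 6.94, 6.81, 6.19 and 6.03 CPM in NUL_220, NUL_221, NUL_226 and NUL_227. NUL_221, the animal with the highest Saa1, did not stand out. In LAC Saa3 was at 2.6, 2.58 and 1.18 CPM, and at ID2 at 5.26, 3.74 and 4.19 CPM, so both groups lay below every NUL animal. At ID2 against NUL, where 8.39% of all genes lay lower without overlap, Saa3 was not called (log2 fold change -0.56, edgeR adjusted p = 0.506). It then stood at 26.3 (ID4_13), 35.8 (ID4_15), 22.6 (ID4_211) and 16.6 CPM (ID4_215) at ID4. The 6 ID6 animals had 14 to 31.2 CPM with a median of 20.3, again above every NUL animal. At ID8 the values were 7.22, 10.4 and 8.07 CPM, and at REG 18.9, 6.70, 5.64 and 8.29 CPM.

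Saa3 fell in lactation against NUL (log2 fold change -1.61, SE 0.42, edgeR adjusted p = 0.0143), a call lost without LAC_240 (-1.33, edgeR adjusted p = 0.0842). It was 3.89-fold higher at ID4 (1.96, SE 0.36, edgeR adjusted p = 0.00239) and 3.35-fold higher at ID6 (1.74, SE 0.34, edgeR adjusted p = 0.00979) than in NUL, and both calls held without any 1 animal. Among animals numbered 200 and over the ID4 difference was 1.59 and did not pass (edgeR adjusted p = 0.116). Saa3 was the only member called at ID6 against NUL, 1 of 10 against 0.402% of all genes rising. From ID2 to ID4 it rose 5.76-fold (2.53, SE 0.41, edgeR adjusted p = 0.00175), a call also made without ID2_31 (2.42, edgeR adjusted p = 0.0243). Between ID4 and ID6 its log2 fold change was -0.22 (SE 0.31, edgeR adjusted p = 0.738). It then fell from ID6 to ID8 (-1.34, edgeR adjusted p = 0.0436), a call that 7 of the 9 leave-one-out fits did not make (highest edgeR adjusted p 0.18, without ID8_101b). The 16 Kupffer cell and macrophage markers checked ran beside Saa3: their summed CPM was 561 to 702 in NUL, 383 to 543 in LAC, 520 to 644 at ID2, 897 to 978 at ID4, 730 to 1117 at ID6, 647 to 777 at ID8 and 583 to 729 at REG. None of the 16 was at 0 in any group, 10 rose and none fell at ID4 against NUL, and 9 fell in LAC, where 7 of 15 stellate and endothelial markers also fell. In whole tissue a change in the number of cells of a type and a change in RNA per cell cannot be told apart, and the part of these cells in the Saa3 values was not tested.

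Saa4 moved the least of the 4 amyloid genes at ID4, and the most evenly. In NUL it was at 181, 217, 151 and 150 CPM in NUL_220, NUL_221, NUL_226 and NUL_227, and in LAC at 114, 108 and 117 CPM. At ID2 it was at 212, 168 and 307 CPM, at ID4 at 337, 318, 273 and 262 CPM, and at ID6 at 138 to 199 CPM with a median of 162. All 4 ID4 animals were above all NUL animals and all LAC animals below them. The log2 fold change was 0.77 at ID4 (SE 0.15, edgeR adjusted p = 0.00228), and this call held without any 1 animal and among animals numbered 200 and over (0.61, edgeR adjusted p = 0.0483). In LAC it was -0.63 (SE 0.16, edgeR adjusted p = 0.0112), a call lost without NUL_221 (-0.49, edgeR adjusted p = 0.0517) and without LAC_213 (-0.60, edgeR adjusted p = 0.0545). Saa4 rose from LAC to ID2 (1.02, SE 0.17, edgeR adjusted p = 0.000294) and fell from ID4 to ID6 (-0.83, SE 0.13, edgeR adjusted p = 0.000441), in both cases also without any 1 animal.

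The orosomucoids are small glycoproteins of plasma, also called alpha-1-acid glycoproteins, that carry drugs and other small molecules. Orm1 (ENSMUSG00000039196, 63344560 to 63348163), Orm3 (ENSMUSG00000028359, 63356162 to 63359511) and Orm2 (ENSMUSG00000061540, 63362449 to 63365878) lie in this order on the plus strand of chromosome 4. Their transcripts were 86.5% to 91% identical, with a longest shared stretch of 141 bases between Orm1 and Orm2. Here too the levels depend on the division of reads, although the deposited counts of all 3 were whole numbers in all libraries. The stretches before Orm2 (chr4:63362199-63362448) and Orm3 (chr4:63355908-63356157), which were 89% identical over 245 aligned bases, show how alike the start regions of members with unequal levels are.
Orm2: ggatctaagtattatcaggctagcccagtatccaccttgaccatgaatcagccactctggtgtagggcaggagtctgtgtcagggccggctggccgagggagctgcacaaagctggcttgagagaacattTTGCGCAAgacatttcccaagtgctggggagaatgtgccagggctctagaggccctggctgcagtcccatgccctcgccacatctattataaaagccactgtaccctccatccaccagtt
Orm3: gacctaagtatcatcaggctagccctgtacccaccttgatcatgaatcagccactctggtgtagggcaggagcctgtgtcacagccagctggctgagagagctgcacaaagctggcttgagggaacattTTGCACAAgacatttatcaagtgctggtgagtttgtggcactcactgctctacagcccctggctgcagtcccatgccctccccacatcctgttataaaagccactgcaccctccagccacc
The match is TTGCGCAA at -120 in Orm2, a palindrome, and TTGCACAA at -121 in Orm3.

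Orm1 made up most of the family at all stages, 95.4 ± 0.909% of the summed TPM of the 3 genes in NUL (SD, n = 4) and 84.9 ± 6.48% at ID4 (n = 4). Orm2 made up 4.29 ± 0.882% in NUL, 1.91 ± 0.325% in LAC (n = 3) and 14.3 ± 6.63% at ID4. Most of the relative change in the family was thus in its minor members.

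Orm2 was at 18, 38.2, 16.8 and 18.2 CPM in NUL_220, NUL_221, NUL_226 and NUL_227, and at 11.4, 17.1 and 9.57 CPM in LAC. At ID2 it was at 26.8 (ID2_224), 19.4 (ID2_31) and 108 CPM (ID2_39), and at ID4 at 282 (ID4_13), 165 (ID4_15), 240 (ID4_211) and 31.6 CPM (ID4_215). Here ID4_215 was again the low animal of its stage and lay within the NUL range, above all NUL animals but NUL_221. The 6 ID6 animals had 19.9 to 95.9 CPM with a median of 28.1, and the ID8 and REG animals 11.7 to 22.4 CPM. Orm2 rose 7.88-fold at ID4 against NUL (log2 fold change 2.98, SE 0.64, edgeR adjusted p = 0.00958), a call that held without any 1 animal, and fell from ID4 to ID6 (-2.25, SE 0.54, edgeR adjusted p = 0.0136), a call lost without ID4_13 (-1.95, edgeR adjusted p = 0.0571). Between LAC and ID2 it did not pass (2.01, edgeR adjusted p = 0.0632). Without ID2_39 the log2 fold change was 0.86 (edgeR adjusted p = 0.477), while Orm2 was called without ID2_31 and by DESeq2 on all libraries.

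Orm3 had the lowest TPM of the 10 genes in NUL, at 1.80, 2.50, 0.652 and 1.85 CPM, and its values were 1.12, 1.24 and 0.727 CPM in LAC. It was at 4.34, 2.03 and 5.16 CPM at ID2, at 9.26, 6.23, 13.1 and 6.91 CPM at ID4, and at 2.92 to 8.38 CPM with a median of 3.86 at ID6. At ID8 it was at 4.27, 2.56 and 2.98 CPM, and at REG at 2.99, 1.73, 1.98 and 2.78 CPM. All ID4, ID6 and ID8 animals thus lay above all NUL animals, and REG animals overlapped the NUL animals. At ID8 against NUL, where 5.83% of all genes lay higher without overlap, Orm3 was not called (log2 fold change 0.93, edgeR adjusted p = 0.342). Orm3 rose 5.20-fold at ID4 against NUL (2.38, SE 0.39, edgeR adjusted p = 0.000951) and 3.71-fold at ID2 against LAC (1.89, SE 0.46, edgeR adjusted p = 0.00811), and both calls held without any 1 animal. The ID4 call also held among animals numbered 200 and over (2.55, edgeR adjusted p = 0.00923), while the ID2 call did not (2.07, edgeR adjusted p = 0.0757). With the counts of the 3 orosomucoids summed, most of which are Orm1's, the ID2 difference was 0.12 (edgeR adjusted p = 0.839). At ID6 against NUL it narrowly missed the threshold (1.44, edgeR adjusted p = 0.0531), and it was called without ID6_230 or ID6_232.

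Orm1 was at 412, 651, 398 and 509 CPM in NUL and at 709, 747 and 494 CPM in LAC. It was the only member with a positive log2 fold change in lactation against NUL (0.40, SE 0.25, edgeR adjusted p = 0.348), which did not pass. At ID4 it was at 1195, 790, 1189 and 664 CPM and rose 1.95-fold against NUL (0.96, SE 0.23, edgeR adjusted p = 0.0185), with every ID4 animal above every NUL animal. That call was lost without NUL_220, NUL_226, ID4_13 or ID4_211 (highest edgeR adjusted p 0.0678, without ID4_13). Orm1 then fell by 0.82 on the log2 scale by ID6 (edgeR adjusted p = 0.0165), a call lost without ID4_13 or ID4_211. Against LAC, Orm1 at ID4 did not pass (0.56, edgeR adjusted p = 0.114). With the counts of the 3 orosomucoids summed, the log2 fold change was 1.15 at ID4 against NUL (edgeR adjusted p = 0.0117) and 0.79 against LAC (edgeR adjusted p = 0.0465).

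Lcn2 encodes a secreted protein that binds iron-carrying siderophores of bacteria, and is also stored in neutrophil granules. The gene (ENSMUSG00000026822) lies on the minus strand of chromosome 2 at 32384633 to 32388252, and the stretch before its start, chr2:32387740-32387989, is shown because Lcn2 had the largest log2 fold change of the members between LAC and ID2.
Lcn2: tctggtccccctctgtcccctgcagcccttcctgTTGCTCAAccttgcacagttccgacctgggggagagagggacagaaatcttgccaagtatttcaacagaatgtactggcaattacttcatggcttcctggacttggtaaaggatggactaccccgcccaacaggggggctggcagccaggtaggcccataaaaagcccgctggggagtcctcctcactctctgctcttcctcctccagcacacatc
The C/EBP match is at -216. RefSeq places this start inside the span that GENCODE gives the gene, as it does for Saa2 and Saa3, so these printed stretches lie partly or wholly within it.

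Lcn2 was at 4.96, 38.5, 5.22 and 8.24 CPM in NUL_220, NUL_221, NUL_226 and NUL_227, and at 1.98, 1.86 and 2.03 CPM in the LAC animals. Lactating livers therefore lay close together and below all nulliparous livers. At ID2 Lcn2 was at 16.6 (ID2_224), 11.7 (ID2_31) and 79.9 CPM (ID2_39), and at ID4 at 165 (ID4_13), 74.1 (ID4_15), 74.2 (ID4_211) and 29.5 CPM (ID4_215). The ID6 animals had 5.27 to 21.1 CPM with a median of 9.28, all below the lowest ID4 animal. ID8 animals had 8.72, 3.08 and 6.33 CPM and REG animals 10.1, 4.20, 4.26 and 6.05 CPM.

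Lcn2 was 7.26-fold lower in LAC than in NUL (log2 fold change -2.86, SE 0.88, edgeR adjusted p = 0.0393). The call was lost without NUL_221 (-1.64, edgeR adjusted p = 0.205) and without LAC_200, LAC_213 or LAC_240. It was also lost with no filter on low counts (edgeR adjusted p = 0.0609), with the number of runs as a covariate (edgeR adjusted p = 0.0503), with only NUL and LAC fitted (edgeR adjusted p = 0.159) and with limma on log2(TPM + 1) (adjusted p = 0.0533). Lcn2 was 18.4-fold higher at ID2 than in LAC (4.20, SE 0.94, edgeR adjusted p = 0.00495) and passed without any 1 animal, with 2.86 without ID2_39 (edgeR adjusted p = 0.0397), but not with only ID2 and LAC fitted (edgeR adjusted p = 0.0632) or among animals numbered 200 and over (3.08, edgeR adjusted p = 0.13). At ID4 it was 43.8-fold above LAC (5.45, SE 0.97, edgeR adjusted p = 0.000353) and 6.04-fold above NUL (2.59, SE 0.72, edgeR adjusted p = 0.0456). Against NUL, 6 of the 8 leave-one-out fits did not call it (highest edgeR adjusted p 0.15, without ID4_13; lost also without NUL_220, NUL_226, NUL_227, ID4_15 or ID4_211), and the log2 fold change was 3.81 without NUL_221. The fall from ID4 to ID6 (-3.02, SE 0.63, edgeR adjusted p = 0.00589) held without any 1 animal. Neutrophil markers, 15 genes of which 13 were tested, summed to 82.2 to 100.6 CPM in NUL, 43.3 to 59.6 in LAC, 63.9 to 69.5 at ID2, 101.1 to 122.8 at ID4, 101.4 to 142.1 at ID6, 95.8 to 111.1 at ID8 and 81.2 to 85.4 at REG. At ID4 against NUL, 12 of the 13 had a log2 fold change above 0, with a median of 0.67 and no call by edgeR, and NUL_221 had 82.2 CPM, the lowest sum in its group. Of the 15 markers, 1 was at 0 in a whole group, Ly6g at REG. The part of neutrophils in the Lcn2 values was not tested.

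Hp encodes haptoglobin, the plasma protein that binds free hemoglobin, and had the highest mean TPM of the members at every stage. The gene (ENSMUSG00000031722) lies at 109575128 to 109579172 on the minus strand of chromosome 8. It was at 1887, 3857, 2197 and 2659 CPM in NUL_220, NUL_221, NUL_226 and NUL_227, and at 1540, 1706 and 1542 CPM in LAC. Although all LAC animals were below all NUL animals, Hp was not called (-0.73, edgeR adjusted p = 0.165). At ID2 it was at 2866, 2019 and 4314 CPM, at ID4 at 8596, 5459, 6746 and 4626 CPM, and at ID6 at 1567 to 5029 CPM with a median of 2876. Every ID4 animal lay above every NUL, LAC and ID2 animal. Hp rose 2.40-fold at ID4 against NUL (1.26, SE 0.30, edgeR adjusted p = 0.0172), a call lost without NUL_220, NUL_226 or ID4_13 (1.08 and edgeR adjusted p = 0.0641 without ID4_13). It fell from ID4 to ID6 (-1.01, SE 0.26, edgeR adjusted p = 0.0204), a call lost without ID4_13 or ID4_211 (-0.83 and edgeR adjusted p = 0.0933 without ID4_13). The REG animals had 2162, 1584, 1481 and 1719 CPM, and the log2 fold change against NUL was -0.61 (edgeR adjusted p = 0.697).

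Il1r1 encodes the receptor through which interleukin-1 signals, and unlike the other members is a membrane receptor and not a plasma protein. It (ENSMUSG00000026072) spans 40225080 to 40317257 on the plus strand of chromosome 1. Of these bases, 6480 are also annotated as the transcript Gm38070 on the same strand, so reads there could count for either. The deposited counts of Il1r1 were whole numbers in all libraries. Il1r1 was at 22.4, 29.7, 29.8 and 27.4 CPM in NUL, at 18.6, 31.3 and 19.9 CPM in LAC and at 18.4, 15.7 and 19.1 CPM at ID2. It was at 30.2, 35.4, 27.6 and 29.6 CPM at ID4, at 25.4 to 40 CPM with a median of 33.4 at ID6, and at 22.9, 18.4 and 19.8 CPM at ID8. The gene was thus low on days 2 and 8 after weaning and high on days 4 and 6, with the smallest ratio of highest to lowest animal among the members, from 15.7 to 40 CPM. The REG animals had 18.1, 24.1, 23.9 and 18.6 CPM.

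Il1r1 was the only member not called at ID4 against NUL (0.17, SE 0.15, edgeR adjusted p = 0.616). It was lower at ID2 than in NUL (-0.62, SE 0.17, edgeR adjusted p = 0.0425), 1 of 10 members falling against 0.919% of all genes. Of 7 leave-one-out fits, 6 did not make that call, all but that without NUL_220 (highest edgeR adjusted p 0.182, without ID2_31). From ID2 to ID4 it rose (0.79, SE 0.17, edgeR adjusted p = 0.0145), a call lost without ID2_31 (0.71, edgeR adjusted p = 0.116), and from ID6 to ID8 it fell (-0.71, SE 0.16, edgeR adjusted p = 0.0135), a call lost without ID8_14 or ID8_98b. ID6 and ID8 animals also differ in their title numbers, 200 and over against under 200, and with that number as a covariate the fall did not pass (-0.80, edgeR adjusted p = 0.147).

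**Figure D2:**
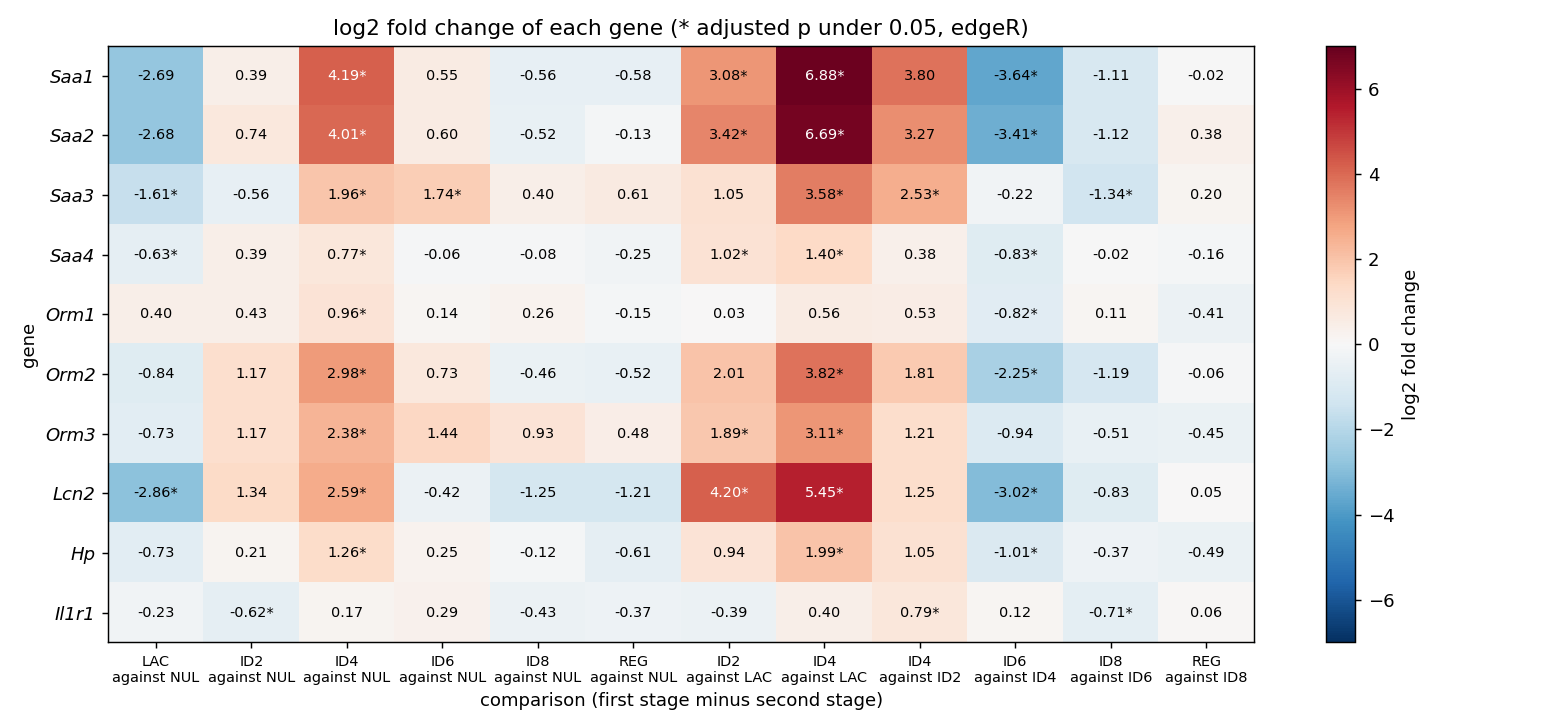
Log2 fold changes of the 10 genes (rows) in 12 comparisons of stages (columns, first stage against second), coloured from lower (blue) to higher (red), with an asterisk where the edgeR adjusted p was under 0.05. The column of ID4 against NUL has 9 asterisks and those of ID8 and REG against NUL have none.

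Across the remaining comparisons the counts were as follows. From LAC to ID2, 5 of 10 members rose (Saa1, Saa2, Saa4, Orm3 and Lcn2), against 8.48% of all genes, with a median log2 fold change of 1.47 against 0.02 over all genes. Markers of other liver cells also rose. Of Kupffer cell and macrophage markers, 10 of 16 were called higher (median 0.56), as were 8 of 15 stellate and endothelial markers (median 0.37), and none lower. The part of these cells in the members' values was not tested. Animals of the groups did not overlap for 8 members, against 18.1% of all genes that lay higher at ID2. The count was 3 without ID2_39, LAC_200, LAC_213 or LAC_240, 3 with the title number as a covariate (Saa4, Orm3 and Lcn2), 1 among animals numbered 200 and over (Saa4), and 7 without ID2_31, the library with pancreas markers. From LAC to ID4, 8 of 10 rose, all but Orm1 and Il1r1, against 11.5% of all genes, with a median of 3.34. From ID2 to ID4, 2 of 10 members rose (Saa3 and Il1r1), against 0.645%, and 1 without ID2_31. In that comparison 7 of 16 Kupffer cell and macrophage markers were called higher and none lower. Saa1 missed the threshold there by little (3.80, edgeR adjusted p = 0.05, not under it before rounding), with 3.09 to 4.8 when 1 animal was left out. It was called without ID4_15 or ID4_215, and with the stricter filter, the title covariate, limma on log2(TPM + 1) or DESeq2. Here 9 of 10 members had an unadjusted p under 0.05, against 13.9% of all genes.

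From ID4 to ID6, 7 of 10 fell, against 4.64% of all genes, with a median of -0.98 against 0.01. Groups did not overlap for 2 members, Saa4 and Lcn2, against 4.32% of all genes that lay lower. The count was 3 (Saa1, Saa4 and Lcn2) without ID4_13, 2 with the title number as a covariate (Saa1 and Saa4) and 1 among animals numbered 200 and over (Saa4). Calls over all genes in either direction were 1401 of 16428 in the main fit, 669 with that covariate and 278 of 17405 in that subset. Orm3 (-0.94, edgeR adjusted p = 0.0802), Saa3 and Il1r1 were the members not called. From ID6 to ID8, 2 of 10 fell (Saa3 and Il1r1), against 1.75% of all genes. This count was 1 without ID6_201, ID6_209, ID6_218, ID6_232 or ID8_101b and 0 without ID8_14 or ID8_98b. At ID6 against NUL, the 1 member called became 2 without ID6_230 or ID6_232.

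At ID8 none of 10 members was called against NUL (0.499% of all genes), where 2 had an unadjusted p under 0.05 (Orm3 and Il1r1), against 12.8% of all genes, and DESeq2 called 0. At REG none of 10 was called against NUL (0.0852% of all genes), where 1 had an unadjusted p under 0.05 (Il1r1, -0.37), against 7.17% of all genes, and none against ID8 (0.0487%), where 0 had one, against 9.02%. These shares are near those of all genes. DESeq2 called 0 in both. A missed threshold does not show that the levels were the same, since the standard errors at REG against NUL reached 0.80 on the log2 scale (Saa2).

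Per length, the order of the members changed with the stage. In NUL the mean TPM was 2974 ± 994 for Hp, 1167 ± 288 for Orm1, 115 ± 20.5 for Saa4, 111 ± 136 for Saa1, 79.1 ± 96.6 for Saa2, 54.1 ± 25.1 for Orm2, 26.8 ± 2.06 for Saa3, 26.6 ± 30.5 for Lcn2, 7.23 ± 1.03 for Il1r1 and 4.05 ± 1.85 for Orm3 (SD, n = 4). Neighbours from Saa4 to Orm2 and from Saa3 to Il1r1 differed by less than the larger of their SDs. At ID4 the mean TPM was 6749 ± 1904 for Hp, 2145 ± 634 for Orm1, 1898 ± 1824 for Saa1, 1218 ± 1341 for Saa2, 405 ± 248 for Orm2, 187 ± 25.6 for Saa4, 151.5 ± 101.2 for Lcn2, 99.3 ± 35.6 for Saa3, 19.9 ± 7.03 for Orm3 and 7.64 ± 0.943 for Il1r1 (n = 4). There the mean of Saa1 and of Saa2 stood well above that of Saa4, with an SD about as large as the mean, and neighbours from Orm1 to Saa3 differed by less than the larger of their SDs.

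Within a stage, the same animals tended to be high for several members. NUL_221 was the highest of 4 for 8 of the 10 genes, ID2_39 the highest of 3 for 9, ID4_13 the highest of 4 for 7, ID8_101b the highest of 3 for 8 and REG_203 the highest of 4 for 7. The lowest animals were ID2_31 and ID4_215 in their groups for 8 genes each, as was ID8_14, and ID6_230 of 6 for 7. For the 28 pairs among the 8 members other than Saa3 and Il1r1, Pearson's r of log2 CPM over 27 libraries was 0.63 to 0.99, and 0.56 to 0.98 after the mean of each stage was removed. For the 8 pairs of Saa3 with these members the same r was 0.18 to 0.72, and 0.15 to 0.38 after removal. The 9 pairs with Il1r1 had 0.15 to 0.54, and -0.11 to 0.38 after removal. These correlations describe libraries that share stages and handling and are given without a test.

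**Figure D3:**
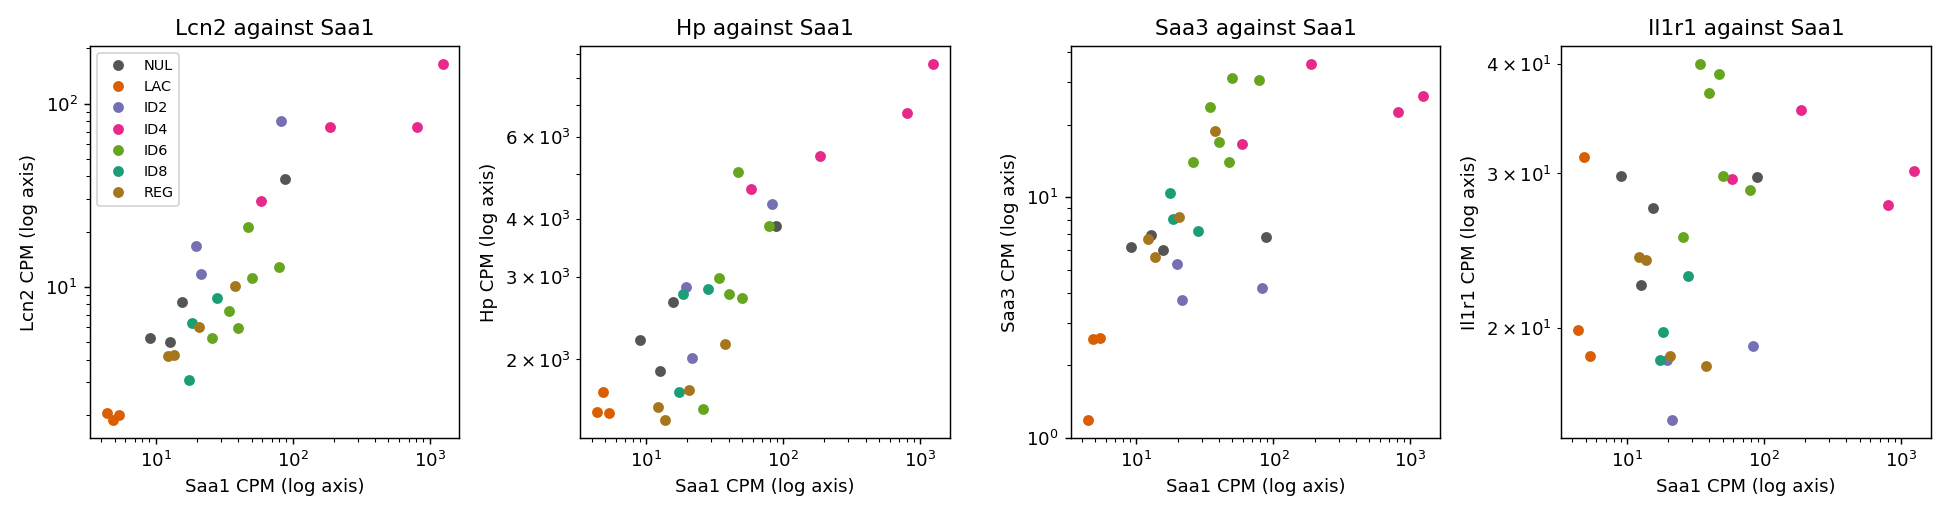
Lcn2, Hp, Saa3 and Il1r1 against Saa1 in CPM (log axes), with 1 point per animal coloured by stage. Lcn2 and Hp follow Saa1 across and within stages, the 6 ID6 animals have high Saa3 at moderate Saa1, and Il1r1 shows no single course along Saa1.

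Outside the list, the genes whose log2 CPM ran most like a member's over the 27 libraries, among 10502 genes whose log2 CPM averaged 1 or more, included many plasma proteins. Itih3, a heavy chain of the inter-alpha-trypsin inhibitor, was 1 of the closest pair for Saa1 (r = 0.92), Saa2 (0.90), Saa4 (0.91), Orm2 (0.92), Lcn2 (0.94) and Hp (0.94). Its relative Itih4 was the other for Saa1 (0.90), Saa2 (0.88) and Orm2 (0.91). Complement component C4b was the other for Lcn2 (0.94), the lipopolysaccharide binding protein Lbp for Saa4 (0.91) and the complement inhibitor Serping1 for Hp (0.96). Orm1 was closest to Apcs, serum amyloid P (0.89), and to coagulation factor F9 (0.87). Saa3 was closest to Slc15a3 and to Clec7a, a receptor of myeloid cells (0.93 each), Orm3 to Tmem176a (0.92) and Tmem176b (0.90), and Il1r1 to Mtmr10 (0.82) and Osgin1 (0.80). With Spearman's rank correlation or TPM the closest pair stayed the same for Orm1, Hp and Lcn2, and changed in at least 1 gene under 1 or both for the other members.

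Other genes of the acute phase response were counted from 6 lists. Of all genes tested, 2.64% rose and 1.61% fell at ID4 against NUL, 5.19% rose and 6.00% fell in LAC against NUL, 8.48% rose and 7.64% fell from LAC to ID2, and 3.89% rose and 4.64% fell from ID4 to ID6. Of 30 other positive acute phase proteins tested, 11 rose and 1 fell at ID4 against NUL, with a median log2 fold change of 0.52 against -0.02 over all genes. Il1rn, the interleukin-1 receptor antagonist, rose by 1.63, hemopexin (Hpx), which binds heme, by 1.21 and Itih3 by 0.87, while hepcidin (Hamp), the regulator of iron release, fell by 1.03 on the log2 scale. In LAC against NUL none rose and 4 fell, Lrg1 (-1.84), Hamp (-1.67), Lbp (-0.80) and Steap4 (-0.69), with a median of -0.19. From LAC to ID2, 10 rose and none fell, with Lrg1 (2.16), Il1rn (1.51), Fgl1 (1.34) and Lbp (1.14) the largest, and a median of 0.34. By ID6, 17 fell against ID4 and 1 rose, with a median of -0.46. The metallothioneins Mt2 (-2.43) and Mt1 (-1.53), Lrg1 (-1.41) and Fgl1 (-1.22) fell the most. The genes of this list that were called moved in the direction of the members in these comparisons, other than Hamp at ID4 and ID6, and most of the list was not called except from ID4 to ID6. Against NUL, 2 of the list rose at ID2, against 2.32% of all genes.

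Of 15 genes listed as negative in the acute phase, a grouping that was not tested here, 4 rose and none fell at ID4 against NUL. These were Ahsg (0.50), Gc (0.43), F12 (0.32) and Serpinc1 (0.28), and the median of the list was 0.25. Between ID4 and ID6, 4 fell and none rose, Ahsg (-0.65), Cyp2e1 (-0.55), Igf1 (-0.33) and F12 (-0.20). The called genes of this list thus moved in the same direction as the members at these stages. In LAC against NUL, albumin (Alb, 0.98) and Serpina1a (0.53) rose and Cyp2e1 (-1.49) fell. From LAC to ID2, 4 rose, among them Serpina6 (1.25), Cyp2e1 (1.12) and Ahsg (0.49), and Alb fell by 0.56 on the log2 scale.

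Genes of the inducing pathways are read against the same shares of all genes, 2.64% rising at ID4 against NUL, 6.00% falling in LAC against NUL and 8.48% rising from LAC to ID2. Of 22 tested genes of interleukin-6 family signalling, 2 rose and none fell at ID4 against NUL, the receptor Il6ra (0.66) and Stat5b (0.36), with a median of 0.16. In LAC against NUL, 1 rose (Il6ra, 0.63) and 4 fell, among them Bcl3 (-0.84), Stat5a (-0.79) and the oncostatin M receptor Osmr (-0.53). From LAC to ID2, 5 rose, including Junb (1.41), Stat3 (0.82), Osmr (0.65) and Bcl3 (0.63), and Stat3 fell by 0.40 on the log2 scale from ID4 to ID6, the 1 call of the list there. Of 31 genes of interleukin-1, tumour necrosis factor and NF-kappaB signalling, 1 rose and 1 fell at ID4 against NUL, Tnfrsf1a (0.34) and Irak2 (-0.29), which is near the shares of all genes. In LAC 6 fell and 1 rose, with the chemokines Cxcl1 (-1.91) and Ccl2 (-1.80), Nfkbiz (-0.72) and Il18 (-0.58) the largest falls. From LAC to ID2, 5 rose and 1 fell, with Cxcl1 (2.21), Ccl2 (1.57), Il18 (0.82) and Tnfrsf1b (0.75) the largest. From ID4 to ID6, 2 fell, Ccl2 (-1.08) and Tnfrsf1a (-0.25). Ccl2 stood at 0.207 CPM in LAC and 0.619 at ID2, so its values rest on few reads.

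Among 16 tested C/EBP, glucocorticoid and liver transcription factors, the 1 call at ID4 against NUL was Foxa1 (-0.52). In LAC Creb3l3 (-0.53) and the glucocorticoid receptor Nr3c1 (-0.31) fell, and from LAC to ID2 Nr3c1 rose (0.43), 1 of 16 against 8.48% of all genes. Among 17 tested binding partners and receptors of these proteins, 4 rose and none fell at ID4 against NUL: Cd36 (0.93), Tlr2 (0.74), the lipoprotein receptor Scarb1 (0.71) and the haptoglobin-hemoglobin receptor Cd163 (0.41). In LAC Tlr4 (-1.02), Tlr2 (-0.90) and ferroportin (Slc40a1, -0.77) fell and Cd36 rose (1.27). From LAC to ID2 the first 3 of these and Scarb1 rose, Tlr2 by 1.06, and Cd36 fell by 0.67 on the log2 scale. Scarb1 fell from ID4 to ID6 (-0.60).

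**Figure D4:**
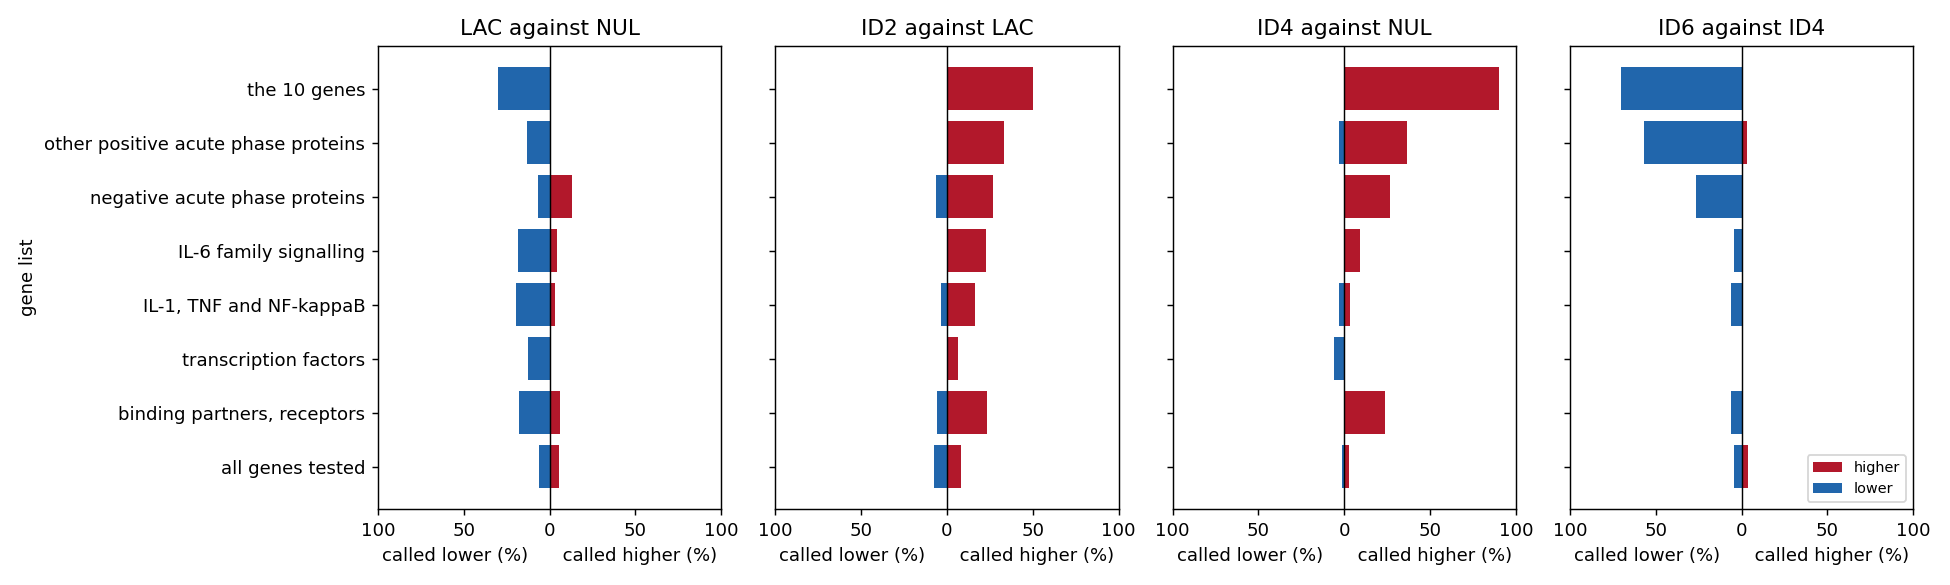
Share of the tested genes of each list called higher (red, to the right) and lower (blue, to the left) in 4 comparisons, in percent, with all genes tested at the bottom. Among the acute phase lists drawn, the 10 genes have the longest bar in each of the 4 panels, and most called genes among the other positive acute phase proteins lie on the same side. Marker lists of cell types are not drawn. Of 16 Kupffer cell and macrophage markers, 9 fell in LAC against NUL and 10 rose from LAC to ID2. Of 15 stellate and endothelial markers, 7 fell and 8 rose in these comparisons, with no call the other way in either list.

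The upstream windows were searched for 3 short motifs. RefSeq gave windows of 300 bases, 250 before and 50 after the start, for 8 of the 10 members, and Orm1 and Hp had no entry. All 8 members had the C/EBP motif TTGCNNAA in at least 1 window, against 10.8% of all 32851 windows of the same length. The NF-kappaB motif (GGG, any 3 bases, TTCC) was found in 1 of the 8, in the second of the windows of Il1r1 and none of those printed, against 5.56% of all windows, and the STAT motif TTCNNNGAA in none, against 8.3%. All motifs were searched on both strands. The members' windows are not independent, since those of Saa1 and Saa2 and those of Orm2 and Orm3 are near copies, and a match to a short motif shows neither binding nor its absence elsewhere.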

How the data were processed

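Whole livers of 27 mice gave 1 RNA library each (Trizol extraction and NEBNext Ultra RNA kit, per the labels), with 1 run accession for 11 libraries and 2 for 16, per the authors' deposited note. Per the submitters' processing notes, STAR 2.6.1a and RSEM 1.3.1 were used with mm10 (GRCm38). The deposited tables hold RSEM's expected counts per gene, the authors' estimates, which are not normalised between libraries, per the file headers. TPM, the authors' length-scaled value, came from the same deposited tables. The gene annotation release and the use of strand are not given in the sources used here. Symbols and positions were matched by identifier to GENCODE M21 (GRCm38) for 51633 of 51826 identifiers.

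Groups came from the sample titles. Replicate libraries of a group differed beyond sampling noise (smallest chi-square per gene 45.8). The labels number the animals but do not say how they were housed or processed, so p-values measure the spread between these animals. Expected counts were rounded and fitted in R 4.3.3 with edgeR 4.0.16 (filterByExpr by stage, 16428 genes; TMM; 1 robust quasi-likelihood fit of all 27 libraries), with two-sided tests and Benjamini-Hochberg adjustment over all genes tested in each of 12 comparisons and jointly over the 7 stages. SEs of log2 fold changes were taken from the F statistics. CPM are counts scaled by TMM library sizes, given as mean ± SD over animals. Totals of 41120650 to 75664540 counts set the precision, and without molecular identifiers counting error is only part of it. The fitting steps were tested on simulated counts. Alternatives were RLE factors, DESeq2 1.42.0, other filters, limma 3.58.1 on log2(TPM + 1) and log2(TPM + 0.1), covariates for title number and number of runs, only the groups compared, summed paralogues and leaving out each library.

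The 10 members were given as a list, and they, the 6 gene lists and the marker lists were chosen with earlier results of these data known. Marker lists covered neutrophils, macrophages, adipocytes, exocrine pancreas, stellate and endothelial cells and hepatocytes. Adipocyte markers summed to 293 to 947 CPM over all libraries, with 1 of 8 tested falling at ID4 against NUL, and stellate and endothelial markers to 436 to 730 CPM, with 7 of 15 falling in LAC against NUL. Exocrine pancreas markers had 7 of 14 rising from LAC to ID2 and none called at ID4 against NUL, and hepatocyte markers, which share 6 genes with the other lists, 1 of 13 rising at ID4. From each list, up to 4 called genes of largest change were named in 4 comparisons, and for each member the 2 most alike genes by Pearson's r. Promoter sequences are RefSeq's, GRCm38.p6.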

Additional observations from a re-analysis of the deposited data

Results flagged for a closer look

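In groups of 4 to 10 animals, the highest and the lowest animal were compared with the rest of their group for every member, 40 groups of values in all, of which chance flags about 1 in 20. NUL_221 stood far above the other 3 nulliparous animals in Saa1 (88.5 CPM), Saa2 (57.7 CPM), Orm2 (38.2 CPM) and Lcn2 (38.5 CPM). These 4 values come from 1 liver and from genes that vary together, so they are not separate events. ID6_216 stood above the other 5 ID6 animals in Orm2 (95.9 CPM). The causes were not tested.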

How the results depend on the processing

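No paired analysis was possible because no replicate number occurs in more than 1 group. No call of a member changed direction under any alternative. All 10 members were called among the 7 stages in each fit of that test: RLE factors, both other filters, both covariates, both log2 TPM scales, DESeq2 and each fit without 1 library. With a covariate for title numbers under 200, the number of members called was 0 (main 1) at ID2 against NUL, 4 (main 9) at ID4 against NUL, 3 (main 5) at ID2 against LAC, 2 (main 7) at ID6 against ID4 and 0 (main 2) at ID8 against ID6. Among animals numbered 200 and over, chosen after seeing the data, it was 0 at ID2 against NUL, 2 at ID4 against NUL (Saa4 and Orm3), 1 at ID2 against LAC, 0 at ID4 against ID2 and 1 at ID6 against ID4, with 2 ID4 animals and 1 ID2 animal left, and the cause was not tested. Over all genes, calls with the title covariate were 108 (main 532) at ID2 against NUL, 359 (main 698) at ID4 against NUL and 1249 (main 2648) at ID2 against LAC. They were 669 (main 1401) at ID6 against ID4 and 6 (main 677) at ID8 against ID6. In the subset numbered 200 and over, 180 of 17405 genes were called at ID4 against NUL and 278 at ID6 against ID4. With no filter or with the number of runs as a covariate the number of members called was 0 at ID2 against NUL and 1 at ID8 against ID6. With only the groups compared it was 5 at ID4 against NUL and 1 at ID8 against ID6. With the stricter filter it was 2 at ID6 against NUL, and on either log2 TPM scale 0 at ID2 against NUL and 2 at ID6 against NUL. On the log2(TPM + 0.1) scale the median log2 fold change of all genes was 0.13 at ID6 against ID4 and -0.11 at ID8 against ID6. DESeq2 called 5 in LAC against NUL, 2 at ID6 against NUL and 5 at ID4 against ID2. Its calls over all genes in these comparisons were 2172 (main 1837), 451 (main 178) and 518 (main 244). Without 1 library in turn the count was 1 to 3 in LAC against NUL, 0 to 1 at ID2, 5 to 9 at ID4 and 1 to 2 at ID6 against NUL, 3 to 7 at ID2 and 8 to 9 at ID4 against LAC, 1 to 3 at ID4 against ID2, 3 to 8 at ID6 against ID4 and 0 to 2 at ID8 against ID6. Where groups hold 3 or 4 animals of wide spread, a small change could not be seen. Calls also lost included those of Lcn2 at ID4 against NUL with no filter (edgeR adjusted p = 0.073) or the runs covariate (edgeR adjusted p = 0.0548), Saa1 at ID2 against LAC with no filter (edgeR adjusted p = 0.0586), Saa1 and Saa2 there with only those groups (edgeR adjusted p = 0.0622 and 0.0514), Orm2 and Hp at ID6 against ID4 with only those groups (edgeR adjusted p = 0.0779 and 0.0519) and Il1r1 at ID4 against ID2 with limma on log2(TPM + 1) (adjusted p = 0.0509).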
